A study of Mus musculus with 15 samples.

Results

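HSP90, its co-chaperones and the heat shock factors were followed at the mRNA level in NIH3T3 cells, a line of mouse embryonic fibroblasts, after an unfolded protein had been made to appear inside the cells. The 10 genes were taken by their symbols, and all of them were found among the 20207 genes measured in each of the 15 samples. They are Hsp90ab1, which encodes the constitutive cytosolic HSP90, the co-chaperone genes Ahsa1, Stip1, Ptges3, Chordc1 and Cdc37, Stub1, which encodes the ubiquitin ligase CHIP, the heat shock factor genes Hsf1 and Hsf2, and Hsbp1. Each of the 10 had at least 1 count in every sample and so entered the tests, as did 10276 genes in all.

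Every group carried the same fusion, DD-sfGFP, in which a destabilizing domain (DD) made from the FKBP protein precedes superfolder GFP. The fusion had been introduced with the PiggyBac transposon and the cells had been sorted for high GFP, so the line was a sorted population. Its ligand Shield-1 (S1), a cell-permeable compound, keeps the DD folded and was present in the medium of all cells until the experiment. The cont group (5 samples) kept S1. The DD 45min, DD 135min and DD 405min groups (3, 3 and 4 samples) were collected at those times after S1 withdrawal, for which purified FKBP protein was put into the medium to take up the ligand. The labels do not say whether samples of a group came from separate cultures, so p-values measure only the spread between these samples, which may be technical. RNA was taken from bulk cultures, in which fewer cells expressing a gene and less mRNA per cell cannot be told apart.

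HSP90 is an abundant chaperone of the cytosol that helps kinases, steroid hormone receptors and other client proteins to reach or hold their active fold, driven by a cycle of ATP binding and hydrolysis. Co-chaperones set the pace of this cycle and choose its clients. HOP, the product of Stip1, bridges HSP70 and HSP90 so that clients pass from one to the other. Cdc37 encodes the adaptor for protein kinases, Ptges3 encodes p23, which binds the closed, ATP-bound form, and Ahsa1 encodes AHA1, the activator of the HSP90 ATPase. The product of Chordc1 also binds HSP90, and CHIP tags clients that chaperones fail to fold with ubiquitin. HSP90 and its partners hold heat shock factor 1 (HSF1) inactive in unstressed cells. When unfolded protein draws the chaperones away, HSF1 forms trimers, binds heat shock elements and induces chaperone genes. HSF2 is a related factor that can form mixed trimers with HSF1, and the protein encoded by Hsbp1 binds the trimerization region of HSF1 and opposes its activity.

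Heat shock elements are inverted repeats of the unit GAA, and promoter letters are given here because the members include both the factors that read such elements and genes that may carry them. Windows of 250 bases before the RefSeq gene start (table for GRCm38.p6) were found for 8 of the 10 genes, and each occurred once, without mismatch, on the expected chromosome of NCBIM37, the build also called mm9 that the deposited tables use. Hsp90ab1 and Hsf1 were not matched. The palindromes GAANNTTC and TTCNNGAA, which read alike on both strands, were searched as 2-unit elements. Cdc37 held TTCCAGAA at positions -170 to -163 from the start and Stub1 held GAAGCTTC at -123 to -116. The RefSeq start of Stub1 lies downstream of the start in the deposited tables, so that its whole window, match included, falls inside the deposited Stub1 interval. Of all 32851 promoters in the table, 12.8% held at least 1 such match. Elements of 3 units in alternating orientation, each 2 bases apart, which contain the 2-unit ones, were found in 0 of the 8 windows and in 0.466% of all promoters. The windows of Cdc37 and Hsf2 are shown because Cdc37 has a match and did not pass any test of the main model, whereas Hsf2 has none and changed most steadily. A match is a run of letters and not a shown binding site. Sequence outside the 250 bases and units that depart from GAA or TTC were not searched. Whether matches go with changes in level was not tested. Capitals mark the GAA and TTC units of the match, and the windows lie at chr9:20954379-20954628 on the minus strand and chr10:57205941-57206190 on the plus strand (NCBIM37).
Cdc37: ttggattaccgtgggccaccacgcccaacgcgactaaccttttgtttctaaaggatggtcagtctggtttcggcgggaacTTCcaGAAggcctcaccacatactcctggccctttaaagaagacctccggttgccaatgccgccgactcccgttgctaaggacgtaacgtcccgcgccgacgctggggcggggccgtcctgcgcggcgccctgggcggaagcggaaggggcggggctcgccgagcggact
Hsf2: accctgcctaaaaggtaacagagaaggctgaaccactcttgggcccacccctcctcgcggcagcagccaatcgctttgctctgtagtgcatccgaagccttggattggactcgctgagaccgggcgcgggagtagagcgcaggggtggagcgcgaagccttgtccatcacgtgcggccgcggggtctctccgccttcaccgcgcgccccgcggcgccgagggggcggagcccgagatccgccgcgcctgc

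Several features of the libraries bear on the results. Total counts ran from 6652539 in control replicate 3 to 30258404 in DD 45min replicate 1. Among the members the smallest single count was 20 reads, for Hsf1 in control replicate 3. That control stood apart for several members, with Ahsa1 at 15.5 counts per 1000000 counts (CPM) against 72.6 to 177 in the other controls. The libraries also fell into 2 sets by how strongly the level of a gene depended on the share of G and C bases in its exons. The slope of log2 CPM per 10 points of GC was between -0.387 and 0.028 in set 2, which held control replicate 2, DD 45min replicate 3 and DD 405min replicates 1, 2 and 4. It was between -1.415 and -0.67 in set 1, the other 10 libraries, which included all 3 of DD 135min. The split was placed at the widest gap between slopes, 0.283, and the gap that sets control replicate 3 apart was almost as wide, 0.278. The study's methods name 2 ways of preparing libraries, and whether the sets correspond to them was not tested. Between the sets 5146 of 10276 genes differed, so a second model with the set as a term was fitted, and its values are given for the members below. As for cell identity, 9 of 10 fibroblast markers lay between 56.4 and 6170 CPM in every sample, Lum being the exception at 0.118 to 3.16 CPM. The summed fibroblast markers were at 15700 to 21000 CPM in controls and 12700 to 18800 CPM at 405 min. Of 8 markers of epithelium, leukocytes, endothelium, neurons and muscle none exceeded 5.54 CPM.

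In control cells the members covered a wide range of levels. On the RPKM scale, which divides by gene length and allows genes to be compared, Hsp90ab1 was highest at 725.1 ± 195.1 (SD, n = 5), above 99.7% of detected genes. Ptges3 followed at 166.3 ± 68.1 and Stip1 at 136 ± 61.6 RPKM (SD, n = 5), and their ranges overlapped. Hsbp1, Cdc37 and Ahsa1 had nearly equal means of 35.3, 34.4 and 34.3 RPKM, with SDs of 8.51, 11.8 and 23.3 (n = 5). Chordc1 was at 18.8 ± 5.12 RPKM (SD, n = 5), within the range of Ahsa1. The regulators lay lowest, with Hsf2 at 7.5 ± 1.75, Stub1 at 5.25 ± 3.24 and Hsf1 at 4.03 ± 3.63 RPKM (SD, n = 5), and these 3 did not differ beyond their spread. The ranges of Hsf2 and Chordc1 did not overlap, nor did those of Hsp90ab1 and Ptges3. RPKM values of control replicate 3 are low throughout, because its deposited RPKM implies 1.74 times the reads per counted gene read of the median library.

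No member passed the test at 45 min after S1 withdrawal. Log2 fold changes from control ran from -0.48 for Chordc1 to 0.60 for Hsf1, with a median of 0.15 over the 10 members beside 0.02 over all genes tested. None passed an adjusted p of 0.05 in edgeR's quasi-likelihood test, none had an unadjusted p under 0.05, and DESeq2 also called none. Over all genes edgeR called 0% at this time, with 365 genes at an unadjusted p under 0.05, and DESeq2 called 6 in total (2 higher and 4 lower). With library set in the model the members' values ran from -0.33 to 0.57, and none passed.

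At 135 min all 10 estimates were above 0, with a median of 0.29 beside -0.06 over all genes, and 1 member passed the test, Hsf2. The background at this time was 0.564% of genes called higher and 0.895% called lower. At 405 min 5 of 10 members had risen and none had fallen, and the median log2 fold change was 0.65 beside -0.0014 over all genes. Across all genes 9.99% were called higher and 13.4% lower at 405 min. The 5 were Ahsa1, Hsf1, Hsf2, Hsp90ab1 and Stip1. In the model with library set all 10 estimates were above 0 at 405 min and 9 of 10 at 135 min, with medians of 0.50 and 0.45 beside -0.01 over all genes at both times. That model called 2 members higher at 135 min, Hsf2 and Hsp90ab1. At 405 min it called 3, Hsf2, Ahsa1 and Hsp90ab1, so Hsf1 and Stip1 did not pass. Over all genes it called 3.06% higher at 135 min and 6.17% at 405 min. The 3 time points were each set against the same 5 controls.

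**Figure D1:**
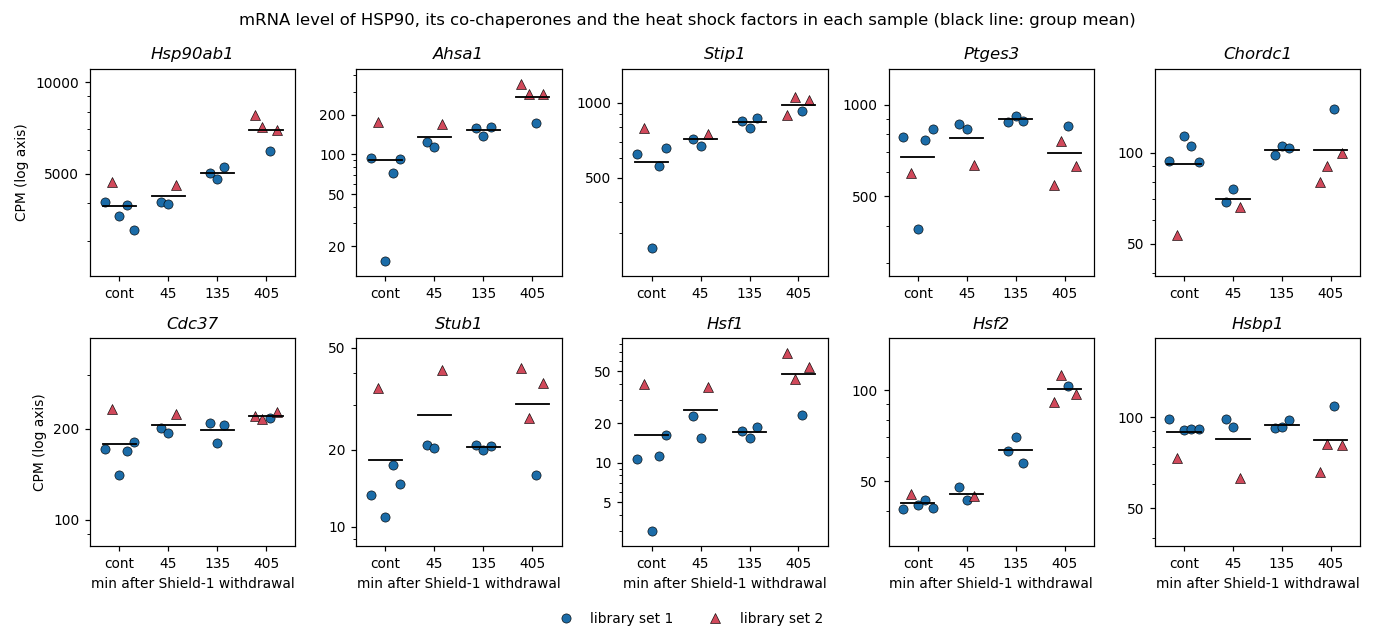
CPM of each of the 10 genes (log axis) in every sample, by min after S1 withdrawal. Circles are library set 1, triangles library set 2 and black lines group means. Hsf2 and Hsp90ab1 lie above every control at 135 and 405 min whichever the set, whereas for Hsf1 and Stub1 the triangles lie high in each group that has them. Samples that all exceed all controls were found for 3.58% of genes at 135 min and 7.57% at 405 min.

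Constitutive HSP90 rose 1.64-fold by 405 min. Hsp90ab1 (chr17:45704727-45710210, minus strand) was at 4041, 4706, 3620, 3947 and 3267 CPM in control replicates 1 to 5. At 45 min it was at 4042, 3978 and 4591 CPM, at 135 min at 5043, 4810 and 5269 CPM, and at 405 min at 7807, 7104, 5952 and 6983 CPM. Every sample at 135 and 405 min exceeded every control, and every sample at 405 min exceeded every one at 135 min. Samples that all exceed all controls were found for 3.58% of genes at 135 min and 7.57% at 405 min, and 405 min samples that all exceed all 135 min samples for 24.9% of genes. The log2 fold change was 0.38 ± 0.14 (SE) at 135 min with an adjusted p of 0.246 in edgeR, and 0.71 ± 0.12 at 405 min with an adjusted p of 0.00181. The rise at 405 min kept an adjusted p between 0.00081 and 0.00849 when any single library was left out. With library set in the model the rise was 0.41 ± 0.11 at 135 min, now past the threshold (edgeR, adjusted p = 0.0309), and 0.63 ± 0.11 at 405 min (adjusted p = 0.00147). In that model 3.06% of all genes were called higher at 135 min and 6.17% at 405 min. Within set 1, with DD 405min represented by replicate 3 alone, the difference at 405 min was 0.57 and within set 2, with control replicate 2 alone, it was 0.63, and neither passed edgeR's test (adjusted p = 0.108 and 0.267). A lone sample is assumed there to vary like the others.

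Hsp90aa1, the gene of the stress-inducible cytosolic HSP90, was measured beside it. It had 2147 to 3674 CPM in controls, 3828, 4279 and 3976 CPM at 135 min and 3851, 4841, 5984 and 4615 CPM at 405 min. Here too all samples at both times lay above all controls, as they did for 3.58% of genes at 135 min and 7.57% at 405 min. The log2 fold changes of 0.39 ± 0.22 (SE) and 0.53 ± 0.20 did not pass the test (edgeR, adjusted p = 0.515 and 0.0694). With library set in the model the change was 0.30 ± 0.13 at 135 min (edgeR, adjusted p = 0.149) and 0.87 ± 0.14 at 405 min, which passed (adjusted p = 0.000552). The share of Hsp90ab1 in the summed RPKM of both genes was 59.4, 71.4, 52.8, 57.4 and 55.4% in control replicates 1 to 5, 62.3, 60.4 and 70.1% at 45 min, 60, 56.1 and 60.1% at 135 min and 69.7, 62.5, 53.1 and 63.2% at 405 min. The highest values within each of the groups that hold set 2 libraries belong to set 2. Group means moved by 4.96, -0.585 and 2.83 points from control, less than the SD of 7.17 points among controls (two-sided exact permutation tests, adjusted p = 0.731, 0.946 and 0.741 over 8 tests of shares). With these group sizes 1 changed share alone could not have passed, since the smallest adjusted p of these permutation tests, over 8, would be 0.143 at 45 and 135 min and 0.0635 at 405 min. These pooled tests take no account of library set. Within set 1, with DD 405min represented by replicate 3 alone, the share differed from control by 2.43 points at 135 min and -3.24 points at 405 min. Of set 2, the 405 min libraries had 69.7, 62.5 and 63.2%, all below its control at 71.4%.

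Ahsa1 rose 2.87-fold by 405 min in the main model, the largest estimate of the members there. With library set it rose 2.16-fold, and the estimate of Hsf2 was larger. The gene (chr12:88607678-88614902, plus strand) was at 94.6, 177, 15.5, 72.6 and 92.5 CPM in control replicates 1 to 5. It had 124, 114 and 170.2 CPM at 45 min, 159, 139 and 162 CPM at 135 min and 345, 289, 173 and 287 CPM at 405 min. Control replicate 2 and DD 45min replicate 3, both of set 2, were the highest of their groups, DD 405min replicate 3 of set 1 was the lowest of its group, and the 405 min samples overlapped the controls. The log2 fold change was 0.82 ± 0.42 (SE) at 135 min (edgeR, adjusted p = 0.468) and 1.52 ± 0.39 at 405 min (adjusted p = 0.0161). Without control replicate 3 the change at 405 min was 1.24 with an adjusted p of 0.00286 in edgeR, and without DD 405min replicate 1 it was 1.4 and missed the threshold (adjusted p = 0.0539). The call at 405 min was also lost with replicate number as a term, at 1.63, and with only the compared groups fitted, at 1.52 (edgeR, adjusted p = 0.0603 and 0.0643). With library set as a term the changes were 1.07 ± 0.33 at 135 min (edgeR, adjusted p = 0.0595) and 1.11 ± 0.34 at 405 min (adjusted p = 0.0397). Within set 1, with DD 405min replicate 3 alone, the change at 405 min was 1.25. Within set 2, with control replicate 2 alone, it was 0.79. With the set and without control replicate 3, a choice made after seeing the data, the gene had already risen at 135 min, by 0.79 ± 0.12 (edgeR, adjusted p = 0.000244), and was at 0.92 ± 0.12 at 405 min (adjusted p = 1.59e-05). In that last model 4.72% of 11342 genes were called higher at 135 min and 10.4% at 405 min.

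Stip1 (chr19:7095197-7114433, minus strand) rose 1.59-fold by 405 min. Control replicates 1 to 5 were at 622, 794, 263, 557 and 660.2 CPM. At 45 min the gene had 719.8, 675 and 749.7 CPM, at 135 min 849, 792 and 868 CPM, and at 405 min 896, 1057, 928 and 1032 CPM. All 405 min samples lay above all controls, as they did for 7.57% of genes, while DD 135min replicate 2 lay just below control replicate 2. The log2 fold change was 0.57 ± 0.21 (SE) at 135 min (edgeR, adjusted p = 0.260) and 0.66 ± 0.19 at 405 min (adjusted p = 0.0256). The call at 405 min was lost without control replicate 4 and without DD 405min replicate 2 or 4 (edgeR, adjusted p = 0.0543, 0.0727 and 0.0688). It was also lost with library set in the model, at 0.58 ± 0.20 (edgeR, adjusted p = 0.0619), and with an offset for each sample's dependence on GC, at 0.45 ± 0.16 (adjusted p = 0.0556). At 135 min the set model gave 0.61 ± 0.19 (edgeR, adjusted p = 0.0636). Without control replicate 3 and with the set the changes were 0.42 ± 0.10 at 135 min and 0.45 ± 0.10 at 405 min, both past the threshold (edgeR, adjusted p = 0.0119 and 0.00351).

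The other co-chaperone genes, Ptges3, Chordc1 and Cdc37, did not pass the main test at any time. Ptges3 (chr10:127496038-127514310, plus strand) was at 785, 596, 389, 766 and 830.0 CPM in control replicates 1 to 5, at 876, 922 and 887 CPM at 135 min and at 545, 761, 849 and 628 CPM at 405 min. Its 135 min samples lay above every control and above every 405 min sample, and at 405 min the set 1 library was the highest. Of all genes, 3.58% had every 135 min sample above every control and 13% had every 405 min sample below every 135 min sample. The log2 fold changes were 0.43 ± 0.22 (SE) at 135 min and -0.05 ± 0.21 at 405 min (edgeR, adjusted p = 0.471 and 0.851), and with library set 0.35 ± 0.17 and 0.19 ± 0.18 (adjusted p = 0.198 and 0.53). Its interval overlaps that of Baz2a on the same strand, so reads at their shared bases cannot be told apart.

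Chordc1 (chr9:18096711-18118444, plus strand) was at 93.7, 53.3, 114, 105 and 93.2 CPM in control replicates 1 to 5. It was at 68.8, 75.6 and 66.2 CPM at 45 min, 98.4, 105 and 104 CPM at 135 min and 80, 90.4, 139 and 99.6 CPM at 405 min. Control replicate 2 was the lowest control by far and DD 405min replicate 3 the highest sample of all. At 135 min the log2 fold change was 0.15 ± 0.25 (SE) in the main model and 0.06 ± 0.16 with library set (edgeR, adjusted p = 0.879 and 0.836). At 405 min it was 0.02 ± 0.23 in the main model (edgeR, adjusted p = 0.947). It was 0.42 ± 0.17 with library set (adjusted p = 0.112) and 0.53 ± 0.10 with an offset for each sample's dependence on GC, which passed the threshold (edgeR, adjusted p = 0.00211). With the set and without control replicate 3 it was 0.49 ± 0.14 (edgeR, adjusted p = 0.0156).

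Cdc37 (chr9:20942985-20954350, minus strand), whose upstream window holds TTCCAGAA, varied little in level. Its group means were 179 ± 33.6, 206 ± 15.6, 198 ± 16.4 and 220.2 ± 4.87 CPM (SD, n = 5, 3, 3 and 4) in cont and at 45, 135 and 405 min. Control replicate 2, at 232 CPM, was above every later sample. The log2 fold changes were 0.17 ± 0.12 (SE) at 135 min and 0.20 ± 0.11 at 405 min (edgeR, adjusted p = 0.607 and 0.174), and with library set 0.20 ± 0.10 and 0.14 ± 0.10 (adjusted p = 0.207 and 0.422). Without control replicate 2, the only control of set 2, the change at 405 min was 0.27 and passed (edgeR, adjusted p = 0.0414). In that fit 2517 of 10287 genes were called higher at 405 min, beside 9.99% in the main model.

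Stub1 (chr17:25967581-25970306, minus strand), the CHIP gene, followed the library sets. The set 2 libraries had 34.9 CPM in the control group, 40.8 CPM at 45 min and 41.9, 26.6 and 36.6 CPM at 405 min. Set 1 libraries had 11 to 17.4 CPM in controls, 20.9 and 20.2 CPM at 45 min, 19.9 to 20.8 CPM at 135 min and 15.9 CPM at 405 min. No value of set 1 reached the lowest of set 2. The log2 fold change at 405 min was 0.63 ± 0.31 (SE) in the main model (edgeR, adjusted p = 0.143) and 0.08 ± 0.17 with library set (adjusted p = 0.815). At 135 min it was 0.20 ± 0.34 and 0.49 ± 0.17 in these models (edgeR, adjusted p = 0.877 and 0.082). Without control replicate 2 the change at 405 min was 0.94 and passed (edgeR, adjusted p = 0.0116). The change at 405 min passed without DD 405min replicate 3 too, at 0.82 (edgeR, adjusted p = 0.0499). In these fits 2517 of 10287 and 1508 of 10298 genes were called higher at 405 min, beside 9.99% in the main model. Stub1 overlaps Jmjd8 and Gm17480 on the other strand and AC159277.1 on its own strand. The use of strand in counting is not given in the sources used here, and reads at bases shared with these genes cannot be told apart.

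**Figure D2:**
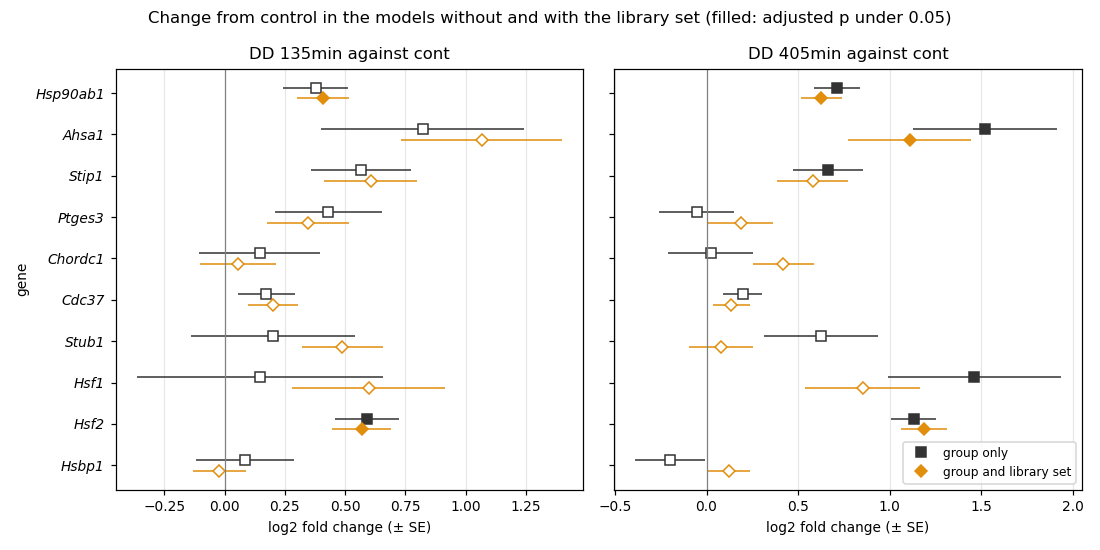
Log2 fold change from control (horizontal axis, ± SE) of each gene at 135 min (left) and 405 min (right). Squares are the model with group only and diamonds the model with group and library set, and filled symbols have an adjusted p under 0.05. Hsf2 is filled in both models at both times, Hsp90ab1 in both at 405 min, and the Stub1 estimate at 405 min drops from 0.63 to 0.08 with the set.

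Hsf2 was the member with the steadiest rise, 1.5-fold at 135 min and 2.19-fold at 405 min. The gene (chr10:57206191-57232949, plus strand) was at 40.5, 45.6, 41.9, 43.5 and 40.9 CPM in control replicates 1 to 5 and at 48, 43.6 and 44.7 CPM at 45 min. It reached 62.9, 70.2 and 57.4 CPM at 135 min and 91.7, 112.1, 103.3 and 96.9 CPM at 405 min. Controls and 45 min samples overlapped, and all 135 min samples lay above both. Samples at 135 min that all exceed all controls were found for 3.58% of genes. All 405 min samples lay above all 135 min samples, which held for 24.9% of genes. The SD among controls was 2.08 CPM around a mean of 42.5 CPM (n = 5), the smallest relative spread of any member, and control replicate 3 was not apart. The log2 fold changes were 0.59 ± 0.13 (SE) at 135 min (edgeR, adjusted p = 0.0393) and 1.13 ± 0.12 at 405 min (adjusted p = 7.59e-05). With library set they were 0.57 ± 0.12 and 1.19 ± 0.13 (edgeR, adjusted p = 0.0109 and 1.63e-05).

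Within each set, where 1 library stands for DD 405min in set 1 and 1 for the controls in set 2 and is assumed to vary like the others, Hsf2 was at 1.2 ± 0.18 in set 1 and 1.14 ± 0.24 in set 2 (edgeR, adjusted p = 0.0102 and 0.0134) at 405 min. Within set 1 it was 0.58 ± 0.13 at 135 min (edgeR, adjusted p = 0.0348). The call at 135 min was less secure. It was lost without control replicate 1, 4 or 5 (edgeR, adjusted p = 0.0948, 0.0764 and 0.0788) and without DD 135min replicate 1, 2 or 3 (adjusted p = 0.178, 0.263 and 0.106), while its estimate stayed between 0.51 and 0.66. Hsf2 was also the only member that differed between 405 and 135 min, by 0.54 ± 0.14 (edgeR, adjusted p = 0.0412), where 2.24% of all genes were called higher and 2.82% lower. With library set that difference was 0.62 ± 0.15 (edgeR, adjusted p = 0.0319), and 1.66% of genes were called higher. This difference, without the set, was lost when any single library of these 2 groups other than DD 405min replicate 3 was left out, with estimates from 0.48 to 0.63 (edgeR, adjusted p from 0.0602 to 0.17).

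Hsf1, the main heat shock factor, was called higher at 405 min, but its level depended strongly on the library. The gene (chr15:76307875-76331402, plus strand) was at 10.7, 39.9, 3.01, 11.2 and 16.2 CPM in control replicates 1 to 5 and at 22.7, 15.5 and 37.7 CPM at 45 min. It had 17.4, 15.4 and 18.8 CPM at 135 min and 68.6, 43.5, 23.3 and 53.5 CPM at 405 min. The set 2 library was the highest in the control and 45 min groups, and the 3 set 2 libraries were the highest at 405 min. The log2 fold change was 0.15 ± 0.51 (SE) at 135 min and 1.46 ± 0.47 at 405 min (edgeR, adjusted p = 0.948 and 0.0374). With library set the changes were 0.60 ± 0.32 and 0.85 ± 0.31 and did not pass (edgeR, adjusted p = 0.226 and 0.0879). Within set 2 it was 0.46 ± 0.25 and within set 1 it was 1.08 ± 0.52 (edgeR, adjusted p = 0.384 and 0.329). It was also lost without control replicate 1, 4 or 5 (edgeR, adjusted p = 0.0841, 0.0857 and 0.0634) and without DD 405min replicate 1, 2 or 4 (adjusted p = 0.123, 0.0737 and 0.0919). With the set and without control replicate 3 it was 0.69 ± 0.19 and passed (edgeR, adjusted p = 0.0125).

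The share of Hsf1 in the summed RPKM of Hsf1 and Hsf2 was 25.5, 53.2, 8.52, 25.1 and 34% in control replicates 1 to 5. It was 38.1, 31.6 and 52.3% at 45 min, 26.5, 22.2 and 29.8% at 135 min and 49.3, 33.5, 22.7 and 41.8% at 405 min. As with the HSP90 pair, the set 2 libraries had the highest shares of their groups. Means differed from control by 11.4, -3.1 and 7.54 points (two-sided exact permutation tests, adjusted p = 0.731, 0.816 and 0.731 over the 8 tests of shares), against an SD of 16.3 points among controls. These pooled tests take no account of library set. Within set 1 the differences from control were 2.89 points at 135 min and -0.627 points at 405 min. Of set 2, the 405 min libraries had 49.3, 33.5 and 41.8%, all below its control at 53.2%.

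**Figure D3:**
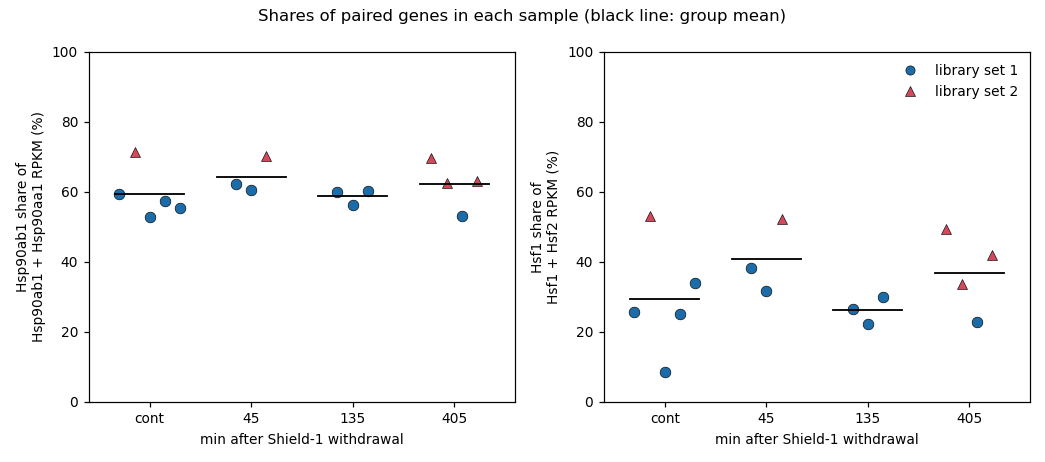
Share of Hsp90ab1 in the RPKM of Hsp90ab1 and Hsp90aa1 (left) and of Hsf1 in that of Hsf1 and Hsf2 (right), in percent, for each sample by min after S1 withdrawal. Circles are library set 1, triangles set 2 and black lines group means. In each group that holds both sets the triangles lie at the top, at up to 71.4% and 53.2%.

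Hsbp1 (chr8:121868438-121872829, plus strand), which encodes the binding protein of HSF1, did not pass the test at any time. It had 98.9, 73.2, 90.9, 91.2 and 91.1 CPM in control replicates 1 to 5, 92.4, 92.8 and 97.8 CPM at 135 min and 66.2, 81.3, 109 and 81.1 CPM at 405 min. The low values are those of set 2. Its log2 fold changes of 0.08 ± 0.20 (SE) at 135 min and -0.20 ± 0.19 at 405 min did not pass (edgeR, adjusted p = 0.921 and 0.431), and with library set they were -0.02 ± 0.11 and 0.12 ± 0.11 (adjusted p = 0.914 and 0.518).

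Members differed in how far they moved with the library sets. Hsf1, Stub1 and Ahsa1 were higher in set 2 than in set 1, by 1.31 ± 0.27, 1.03 ± 0.15 and 0.83 ± 0.30 on the log2 scale (SE, edgeR model with group and set, adjusted p = 0.00111, 8.14e-05 and 0.0287). Chordc1, Hsbp1 and Ptges3 were lower in set 2, by -0.69 ± 0.15, -0.60 ± 0.10 and -0.46 ± 0.16 (edgeR, adjusted p = 0.00128, 0.000212 and 0.0247). Hsp90ab1, Stip1, Cdc37 and Hsf2 did not pass, at 0.15 ± 0.10, 0.17 ± 0.17, 0.12 ± 0.09 and -0.10 ± 0.11. The sets were defined from the GC slope over all genes in these same counts. These p-values are therefore not an independent test of a difference between sets. Over all genes 5146 of 10276 differed between the sets in this model. No test relates base composition to these differences among the members. The exons of Stub1 and Hsf1 were richest in G and C, at 61.4 and 58%, and those of Chordc1, Hsf2, Ptges3 and Hsbp1 were poorest, at 39.2, 41.1, 42.9 and 47.1%. Ahsa1 was at 52.1%, close to Stip1 at 51.9%, Hsp90ab1 at 50.9% and Cdc37 at 53.7%. Whether these genes differ from each other in how far they moved with the sets was not tested. At 405 min, 3 of 4 samples were of set 2 against 1 of 5 controls, so for Hsf1, Stub1 and Ahsa1 part of the difference from control cannot be told apart from the set in the model with group only.

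**Figure D4:**
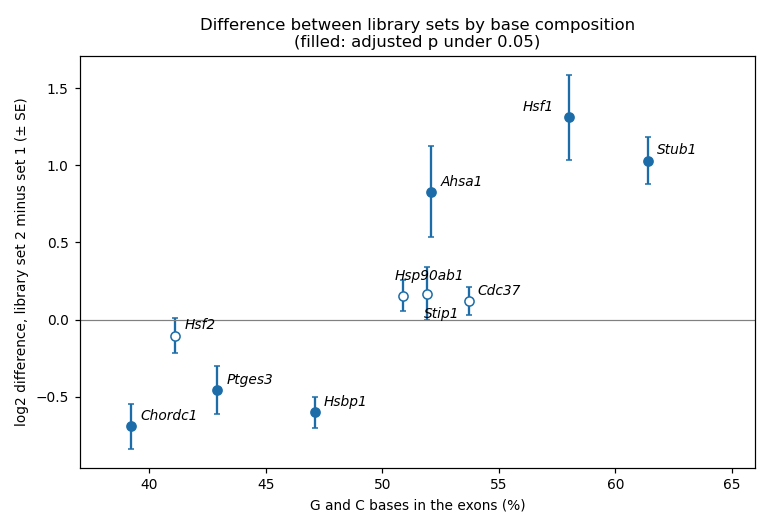
Log2 difference between library set 2 and set 1 (± SE, from the model with group and set) against the percentage of G and C bases in the exons of each of the 10 genes. Filled symbols have an adjusted p under 0.05. Stub1 and Hsf1 lie at the upper right and Chordc1 at the lower left, with Hsf2 near 0.

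Other genes of the HSP90 machinery were described from a list of 38 genes, of which 33 were tested. None was called at 45 or 135 min by edgeR with group only. With library set, Fkbp4 and St13 were higher at 135 min, by 0.89 and 0.41, and Fnip1 was lower, at -0.67 (edgeR, adjusted p = 0.0476, 0.0192 and 0.0144), where 3.06% of all genes were called higher and 4.88% lower. These 3 were named after their values were seen. In the model without the set, 1 gene at 135 min, Ahsa2, had an unadjusted p under 0.05, beside 1226 of all 10276 genes. DESeq2 called none of the list. Between 405 and 135 min none was called in edgeR either, with 7 higher and 3 lower at an unadjusted p under 0.05 and 3 called by DESeq2. Over all genes 2838 of 10276 had such an unadjusted p in this comparison, and DESeq2 called 813 higher and 691 lower. At 405 min 5 of the 33 rose and 3 fell, with a median log2 fold change of 0.27 beside -0.0014 over all genes. As shares of the list these are 15.2 and 9.09%, beside 9.99 and 13.4% of all genes. Among those that rose were Hspbp1, an exchange factor of HSP70, by 1.43 ± 0.48 (SE), St13, the HSP70 partner HIP, by 0.76 ± 0.16, and Fnip2, a binding partner of folliculin, by 0.75 ± 0.24 (edgeR, adjusted p = 0.0428, 0.0052 and 0.0369). Nudcd2, Fkbp5 and Nudcd1 fell, by -1.04 ± 0.30, -0.73 ± 0.17 and -0.64 ± 0.17 (edgeR, adjusted p = 0.0246, 0.00908 and 0.0183). Fkbp5 encodes an immunophilin of steroid receptor complexes. With library set in the model 5 rose and 1 fell, where 6.17% of all genes were called higher and 6.87% lower, and St13 and Fkbp5 were still past the threshold, at 0.52 and -0.87, whereas Hspbp1, Fnip2, Nudcd2 and Nudcd1 were not, at 0.61, 0.37, -0.53 and -0.45.

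Genes of the heat shock factor family and its regulators formed a list of 23, of which 17 were tested. The family members Hsf3, Hsf4 and Hsf5 were not among the tested. In edgeR with group only none was called at 45 or 135 min, with 0 and 4 genes at an unadjusted p under 0.05, and DESeq2 called none at either time. Over all 10276 genes 365 and 1226 had such an unadjusted p at these times. With library set, Vcp and Fbxw7 were higher at 135 min, by 0.77 and 0.80 (edgeR, adjusted p = 0.00332 and 0.0308), of which Fbxw7, a ubiquitin ligase subunit, was named after its value was seen. In that model 3.06% of all genes were called higher at 135 min and 4.88% lower. Between 405 and 135 min edgeR called none, with 7 higher and 2 lower at an unadjusted p under 0.05, and DESeq2 called 4. Over all genes 2838 of 10276 had such an unadjusted p in this comparison, and DESeq2 called 813 higher and 691 lower. At 405 min 4 of 17 rose and none fell, with a median of 0.41 beside -0.0014 over all genes, of which 9.99% were called higher and 13.4% lower. They were Vcp, the ubiquitin-selective segregase p97, by 1.37 ± 0.20 (SE), Sympk, a scaffold of the polyadenylation machinery that binds HSF1, by 1.32 ± 0.40, Hdac6, a deacetylase that binds ubiquitin, by 1.16 ± 0.34, and Polr2a, the largest subunit of RNA polymerase II, by 0.61 ± 0.12 (edgeR, adjusted p = 0.000434, 0.0292, 0.0275 and 0.00487). With library set Vcp, Sympk and Polr2a were past the threshold, at 1.10, 0.67 and 0.45, and Hdac6 at 0.80 was not (edgeR, adjusted p = 0.095). Of all genes that model called 6.17% higher at 405 min and 6.87% lower.

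Genes that HSF1 is known to induce gave a reference for the time course, from a list of 16 with 14 tested. Of the 14, 5 were called higher at 135 min and 6 at 405 min in edgeR, none lower, with medians of 0.48 and 0.47. As shares of the list the higher calls are 35.7 and 42.9%. Over all genes 0.564 and 9.99% were called higher and 0.895 and 13.4% lower, with medians of -0.06 and -0.0014. None was called at 45 min by edgeR or DESeq2, and Dnajb1 alone had an unadjusted p under 0.05. With library set 6 were called higher at 135 min and 7 at 405 min, beside 3.06 and 6.17% of all genes. This list and that of the HSP90 machinery share Hsp90aa1. At 135 min Hspa1b, Hsph1, Dnajb1 and Hspa8, which encode HSP70 and HSP110 chaperones and a J-domain partner, were higher by 1.96 ± 0.44, 1.29 ± 0.16, 1.14 ± 0.25 and 0.87 ± 0.20 (SE, edgeR, adjusted p = 0.039, 0.000399, 0.0378 and 0.0478). At 405 min the largest were Bag3, Hspb8, Hspa8 and Hsph1, at 1.5 ± 0.18, 1.39 ± 0.16, 1.31 ± 0.19 and 1.11 ± 0.15 (edgeR, adjusted p = 0.000161, 9.7e-05, 0.000467 and 0.000286). From 135 to 405 min Hspa1b fell by 2.94 ± 0.49 on the log2 scale, while Hspb8 rose by 0.79 ± 0.18 (edgeR, adjusted p = 0.00632 and 0.0259). With library set the fall of Hspa1b was smaller, at -1.99, Dnajb1 was also called lower, at -0.93, and Hspb8 at 0.56 did not pass (edgeR, adjusted p = 0.00284, 0.0232 and 0.0884). Reads of Hspa1b are uncertain because the adjacent Hspa1a is almost the same in sequence.

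The genes whose log2 CPM followed a member most closely over the 15 samples are given as a description. Hsf2 was followed by Usp14, Prdx1 and Ptgr1 (Pearson r = 0.977, 0.972 and 0.97), and Hsp90ab1 by Frmd8, Nploc4 and Psmc3 (r = 0.977, 0.972 and 0.971). Closest to Ahsa1 were Pgd, Elf2 and Brd2 (r = 0.991, 0.988 and 0.986), to Hsf1 Dnajc11, Rbm42 and Pkd1 (r = 0.994, 0.992 and 0.991), and to Chordc1 Fth1, Zfp69 and Pdia3 (r = 0.936, 0.92 and 0.916). Among the members themselves Ahsa1 and Stip1 moved most alike (r = 0.969), followed by Ahsa1 and Hsf1 (r = 0.944), while Stub1 and Hsbp1 moved most in opposite ways (r = -0.82). Samples share time point, library set and depth, all of which enter these values.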

How the data were processed

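mRNA was measured by poly(A) RNA-seq in 15 samples. The authors aligned reads to mm9 and quantified them against RefSeq on DNAnexus, and tool versions are not given in the sources used here. The deposited tables hold estimated counts per gene (expected counts, 8.71 to 15.6% of them not whole), RPKM computed by the authors, and 2 columns derived by the authors from RPKM. Of these, the score is RPKM centred and scaled over the genes of a sample by the authors, and the deposited ratio is RPKM over its root mean square. The score and the ratio were not used in any result. Counts were rounded, genes at 0 in any sample were left out (10276 kept), and edgeR 4.0.16 (R 4.3.3) was fitted with TMM scaling and the quasi-likelihood test on all 4 groups, with p-values adjusted by Benjamini-Hochberg over all genes and a threshold of 0.05. DESeq2 1.42.0 was an alternative. The test was checked on data simulated without library sets and with less spread between samples than these data, so the check does not cover those features. CPM used the summed counts of each sample. Intervals of 940 genes differed between tables, none of them a member. Depth was 6652539 to 30258404 counts per sample. Library sets were inferred from the counts and GC content, not from labels. GC content was known for 95.8% of tested genes. Shares were compared by exact permutation tests. The members, lists and tests were chosen with earlier results of these data known. All members and Hsp90aa1 were named, and of each list at most 4 genes per direction and comparison with the largest log2 fold change past the threshold. A gene that met this rule is not reported here. Alternatives changed the scaling, filter, model, groups and samples used.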

Additional observations from a re-analysis of the deposited data

Results flagged for a closer look

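In control replicate 2, the only control of library set 2, Chordc1 was at 5.74 log2 CPM and lay apart from the other 4 controls, with a gap of 0.738 of the range of the group against a critical value of 0.71. Hsbp1 was at 6.2 log2 CPM in the same library, with a gap of 0.721 of the range. Both genes were lower in set 2 throughout, and the part of the set in these values was not tested further. In all, 26 groups of values were checked and 2 stood apart, where chance gives about 1 in 20.

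Hsf2 changed more from control at 405 min than at 135 min, by 0.544 on the log2 scale (edgeR, adjusted p = 0.0412). All 4 samples at 405 min exceeded all 3 at 135 min, as they did for 24.9% of genes.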

How the results depend on the processing

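Over 44 values (10 members and Hsp90aa1 in 4 comparisons) and 858 alternatives, 715 kept direction and side of the threshold, 51 lost and 19 gained significance, and 73 changed sign, none of them a value called in the main model. Members called higher at 135 min numbered 2 with library set, 2 in DESeq2, 4 with the set and without control replicate 3 (chosen after seeing the data), and 0 with filterByExpr, with no filter and with the compared groups only. At 405 min they numbered 3 with the set, 1 within set 1, 1 within set 2 and 2 with the compared groups only, against 5. The GC offset also called 5, with Chordc1 in place of Stip1. Between 405 and 135 min they numbered 0 within set 1, with filterByExpr and with no filter, and 3 with the compared groups only, against 1. Leaving out 1 library gave 0 to 1 at 135 min, 3 to 7 at 405 min and 0 to 1 between them. Calls over all genes moved with the setting too. With the compared groups only, 16 of 10399 genes were called higher at 135 min and 349 of 10328 at 405 min, against 58 and 1027 of 10276. Between 405 and 135 min 1880 of 12188 were called higher there, against 230 of 10276. Leaving out 1 library gave from 418 of 10289 to 2517 of 10287 genes called higher at 405 min. The causes were not tested. Counts of 20 reads limit Hsf1 in control replicate 3.

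Replicate numbers showed no pairing of the samples on average. Same-numbered samples had a mean correlation of -0.11 in their deviations from group means (19 pairs, from -0.706 to 0.439), different numbers 0.0281 (64 pairs). The library sets enter these deviations, so this comparison cannot exclude pairing. With a replicate block the members called higher were 0 at 135 min, 2 at 405 min and 0 between them, and with block and GC offset 0 at 135 min, 4 at 405 min (Ahsa1, Chordc1, Hsf1 and Hsf2) and 0 between them. At 405 min the block alone left Hsp90ab1 and Hsf2, and with block and GC offset Hsp90ab1 was at 0.45 (edgeR, adjusted p = 0.0539). Sign changes under the block were -0.0492 for Hsp90ab1 and -0.013 for Hsf2 at 45 min, and 0.0462 for Ptges3 at 405 min. With block and GC offset they were -0.169 for Hsp90ab1 and -0.0587 for Cdc37 at 45 min, 0.334 for Ptges3 and -0.153 for Cdc37 at 405 min, and -0.105, 0.126, -0.27 and -0.384 for Stip1, Chordc1, Cdc37 and Stub1 between 405 and 135 min.

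Other sign changes, all log2, were as follows. At 45 min within set 2, Hsp90ab1, Ahsa1, Stip1, Chordc1, Cdc37, Hsf1, Hsf2 and Hsp90aa1 were at -0.0421, -0.0625, -0.0899, 0.306, -0.0628, -0.0874, -0.0343 and 0.0443. With the GC offset Hsp90ab1 was at -0.0923 and Cdc37 at -0.0638, and with DESeq2 size factors Hsf2 was at -0.000983. At 135 min within set 1 Chordc1 was at -0.0134 and Hsbp1 at -0.00161, and Hsbp1 was at -0.0218 with the set and -0.00392 with the set and without control replicate 3. At 405 min Ptges3 was at 0.188 with the set, 0.207 and 0.113 within sets 1 and 2, 0.244 with the GC offset and 0.0785 with the set and without control replicate 3. Hsbp1 was at 0.122, 0.121, 0.0545 and 0.129 with the set, within sets 1 and 2, and with the set and without control replicate 3. Cdc37 was at -0.0766 within set 2 and -0.153 with the GC offset, Stub1 at -0.0114 within set 2 and Chordc1 at -0.00394 with filterByExpr. Between 405 and 135 min with the set, Stip1, Chordc1, Cdc37, Stub1 and Hsbp1 were at -0.0265, 0.362, -0.0648, -0.412 and 0.144. Chordc1, Stub1 and Hsbp1 were at 0.359, -0.444 and 0.123 within set 1. With the GC offset Stip1, Chordc1, Cdc37 and Stub1 were at -0.0844, 0.155, -0.271 and -0.308. With the set and without control replicate 3, Chordc1, Cdc37, Stub1 and Hsbp1 were at 0.328, -0.0582, -0.397 and 0.133. Cdc37 was at -0.00887 with filterByExpr and -0.00722 with the compared groups only. Within set 1 the Hsp90ab1 share differed by 2.43, -3.24 and -5.67 points and the Hsf1 share by 2.89, -0.627 and -3.51 points (135 min and 405 min from control, 405 from 135 min).

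Leaving out 1 library changed the sign of some values not called. At 45 min the ranges were -0.0438 to 0.0623 for Hsp90ab1, -0.035 to 0.07 for Hsf2 and -0.28 to 0.0569 for Hsbp1. At 135 min they were -0.0192 to 0.281 for Chordc1, -0.0832 to 0.72 for Hsf1 and -0.00635 to 0.135 for Hsbp1. At 405 min they were -0.186 to 0.133 for Chordc1 and -0.201 to 0.0557 for Ptges3, and between 405 and 135 min -0.039 to 0.0583 for Cdc37 and -0.00703 to 0.241 for Hsp90aa1. The Hsp90ab1 share at 135 min ranged from -2.2 to 2.43 points and at 45 min from 2.03 to 7.98 points, and the Hsf1 share at 135 min from -8.28 to 2.89 points.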
